A study of Mus musculus with 15 samples.

Results

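The 41 genes described here drive or mark the cell division cycle. They were chosen by gene symbol from the 56953 genes of the deposited tables, not by measured values, although earlier results of these data were known. The list holds 15 cyclins, cyclin-dependent kinases (CDKs) and cell cycle transcription factors, 14 replication genes and 12 mitotic genes. Every symbol matched 1 row.

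RNA was sequenced from satellite cells, the muscle stem cells (MuSCs) that rebuild damaged fibres, and from quadriceps femoris muscle. All animals carried the wild-type genotype (WT) on strain 129, and the labels describe 10-week-old males. MuSCs were taken by biopsy from mice 5, 6 and 11 before the animals received their own MuSCs back, and again afterwards from a site that had not been transplanted, giving 3 libraries before and 3 after. Muscle came from 6 transplanted mice (4, 14, 94, 5, 6 and 11) and 3 sham-operated mice (3, 192 and 12). The sources used here give neither the time between the biopsies nor any culture step. Libraries are named below by state and mouse, such as after 5.

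Entry into the cycle is driven by D-type cyclins with Cdk4, which release E2F transcription factors from the retinoblastoma protein. E2F proteins then switch on cyclin E and the genes that license and copy DNA, and a later wave of Foxm1 and B-Myb with the DREAM-binding CHR element of promoters switches on the genes of mitosis. MuSCs of resting adult muscle are mostly quiescent, with this programme off, and turn it on when they are activated by injury or by culture. In bulk RNA, fewer cycling cells and less RNA per cycling cell cannot be told apart.

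Promoter letters differed between the mitotic and the replication genes, a feature that the choice of members did not use. RefSeq windows (assembly GRCm38.p6) from 250 bases before to 50 after a transcription start were found for 32 of the 41 genes, in 35 windows. The CHR element was searched as TTTGAA and in its other common form TTCGAA, the NF-Y site as CCAAT, and the E2F site as TTCCCGC together with its close variants TTGGCGC and also TTCGCGC as well as the form TTGCCGC, on both strands. Matches of these E2F forms can overlap on opposite strands, and each window was counted once per element. A CHR match was present in 9 of 10 mitotic windows (90.0%), 2 of 13 replication windows (15.4%) and 4 of 12 cyclin and CDK windows (33.3%), against 19.2% of all 32851 windows. E2F letters showed the opposite order, with 1 of 10 mitotic windows (10.0%), 9 of 13 replication windows (69.2%) and 5 of 12 cyclin and CDK windows (41.7%), against 9.57% of all windows. CCAAT was present in 90.0%, 76.9% and 66.7% of these windows and in 37.4% of all windows.

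Promoters of 4 of these genes are printed in pairs whose genes share elements and differed in how their RNA varied among the MuSC libraries. The pairs were picked with these RNA values known. Transcript GC differs within them too, at 55.6% (Cdc20) and 42.2% (Kif11), and at 51.9% (Mcm5) and 44.4% (Rrm1). No link between promoter letters and RNA levels was tested. Cdc20 activates the anaphase-promoting complex and Kif11 is the kinesin that separates spindle poles. Each has a CHR match close upstream of the start, 18 bases before it in Cdc20 and 19 in Kif11, with CCAAT letters beside it. Mcm5, a subunit of the replicative helicase, and Rrm1, the large subunit of ribonucleotide reductase, have E2F letters and CCAAT instead. The 4 stretches run from 180 bases before to 30 bases after the start, 5′ to 3′ on the strand of the gene. They lie at chr4:118437314-118437523 (minus strand, Cdc20), chr19:37376202-37376411 (plus strand, Kif11), chr8:75109329-75109538 (plus strand, Mcm5) and chr7:102441515-102441724 (plus strand, Rrm1) of GRCm38.p6. Capitals mark CHR and CCAAT letters in the first pair and E2F and CCAAT letters in the other, on either strand.
Cdc20: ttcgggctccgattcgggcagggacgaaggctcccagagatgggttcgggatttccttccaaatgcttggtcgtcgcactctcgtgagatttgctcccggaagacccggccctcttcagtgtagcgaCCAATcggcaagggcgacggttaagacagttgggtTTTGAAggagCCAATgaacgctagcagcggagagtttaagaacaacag
Kif11: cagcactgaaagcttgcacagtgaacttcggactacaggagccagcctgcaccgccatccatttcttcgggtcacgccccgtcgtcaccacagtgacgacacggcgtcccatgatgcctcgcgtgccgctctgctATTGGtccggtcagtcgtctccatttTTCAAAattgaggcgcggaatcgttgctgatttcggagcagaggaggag
Mcm5: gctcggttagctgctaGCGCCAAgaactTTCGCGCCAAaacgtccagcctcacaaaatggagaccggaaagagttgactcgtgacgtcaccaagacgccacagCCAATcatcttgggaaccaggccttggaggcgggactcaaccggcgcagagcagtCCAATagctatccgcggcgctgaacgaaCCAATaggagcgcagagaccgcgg
Rrm1: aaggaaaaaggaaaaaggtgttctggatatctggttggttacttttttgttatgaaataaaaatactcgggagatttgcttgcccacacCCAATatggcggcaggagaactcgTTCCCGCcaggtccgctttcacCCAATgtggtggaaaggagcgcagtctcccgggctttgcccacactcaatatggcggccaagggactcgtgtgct
These matches describe letters and were not tested as binding sites.

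The libraries held 17.09 to 22.98 M estimated counts (M for mega) and 17695 to 20121 detected genes. Muscle stem cell identity was checked first. In the 6 MuSC libraries Pax7, the defining transcription factor of the lineage, was at 41.4 to 97.9 CPM (counts scaled to a common library size with TMM factors) and Myod1, which marks activated myoblasts, at 614.9 to 1696.0 CPM. The quiescence marker Calcr had at most 1 count and Chodl at most 6 counts in any MuSC library. Of the markers of other cell types, Ptprc, Adgre1, Cd3e, Dcn, Lum, Emcn and Sox10, which mark leukocytes, fibroblasts, endothelium and Schwann cells, had 0 counts in all MuSC libraries. Others were present: Col3a1 at 133.9 to 201.8 CPM, Smoc2 at 1.68 to 241.2, Col1a1 at 0.0987 to 29.0 and Ly6a at 1.78 to 26.3 CPM of the fibroadipogenic list, Acta2 at 340.5 to 1423.5 CPM of the smooth muscle list, and the leukocyte marker Cd68 at 30 to 93 counts. Their part in the results was not tested. After 11 stood apart with 1.20% mitochondrial counts, against 4.44% to 6.28% in the other 5. The spelling of the library descriptions puts after 5, before 5 and before 11 in one set (A) and after 6, before 6 and after 11 in another (B), so only mouse 11 has its before and after libraries in different sets. Against the label of male, Xist had 520 to 17053 counts in 14 libraries (2 in transplanted 4), and 4 Y-linked genes summed to 1 to 22 counts in every library.

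The first comparison asked how MuSCs differed after transplantation elsewhere in the same animal. In counts scaled by library, most cell cycle genes had higher means after than before, but none passed the threshold. With edgeR's quasi-likelihood test, 32 of 41 members had a log2 difference above 0 (51.4% of the 13512 genes tested), and their median was 0.34 against 0.021 over all genes. The counts were 12 of 15 cyclins, CDKs and transcription factors (median 0.32), 12 of 14 replication genes (0.40) and 8 of 12 mitotic genes (0.26). No member was called at an adjusted p of 0.05, and neither was any other gene (0.0%). The adjusted p of the members ran from 0.873, the lowest of any gene, to 0.997. At an unadjusted p under 0.05 there were 2 members (2.26% of all genes), Foxm1 and Birc5. DESeq2 called 0 members and 16 genes (0.119%), with 3 members under an unadjusted p of 0.05. The count above 0 was lower in deposited TPM (transcript abundance scaled by length and library). On the log2(TPM + 1) scale 24 of 41 members had a higher mean after than before (58.5%, against 35.9% of all genes), with a median of 0.10 where all genes had -0.14. In that unit 8 of 15 cyclins, CDKs and transcription factors (median 0.02), 10 of 14 replication genes (0.13) and 6 of 12 mitotic genes (-0.02) were above 0. By mouse, 26, 37 and 20 members were above 0 in TPM in mice 5, 6 and 11, and the median was -0.03 in mouse 11, where all genes had -0.38.

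The shape over single mice differed from that average. In mouse 6, after exceeded before for 39 of 41 members (50.8% of all genes), the exceptions being Ccnd2 and E2f2, with a median difference of 0.40. In mouse 5 it did so for 26 members (49.3%), with a median of 0.07, and in mouse 11 for 25 (50.3%), with a median of 0.60. Mice 5 and 6 were both higher for 26 members, 63.4% of them, against 22.0% of all genes, and all 3 mice for 11 members, 26.8% of them, against 10.8%. The 11 were Ccnb2, Foxm1, Mcm2, Mcm3, Mcm5, Mcm7, Pcna, Cdc6, Aurkb, Birc5 and Plk1. Groups did not overlap for 5 of these, Foxm1, Pcna, Cdc6, Aurkb and Birc5, which is 12.2% of the members against 3.35% of all genes. Ccnd2 was the 1 member lower after without overlap (2.98% of all genes) and the 1 lower in every mouse.

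**Figure D1:**
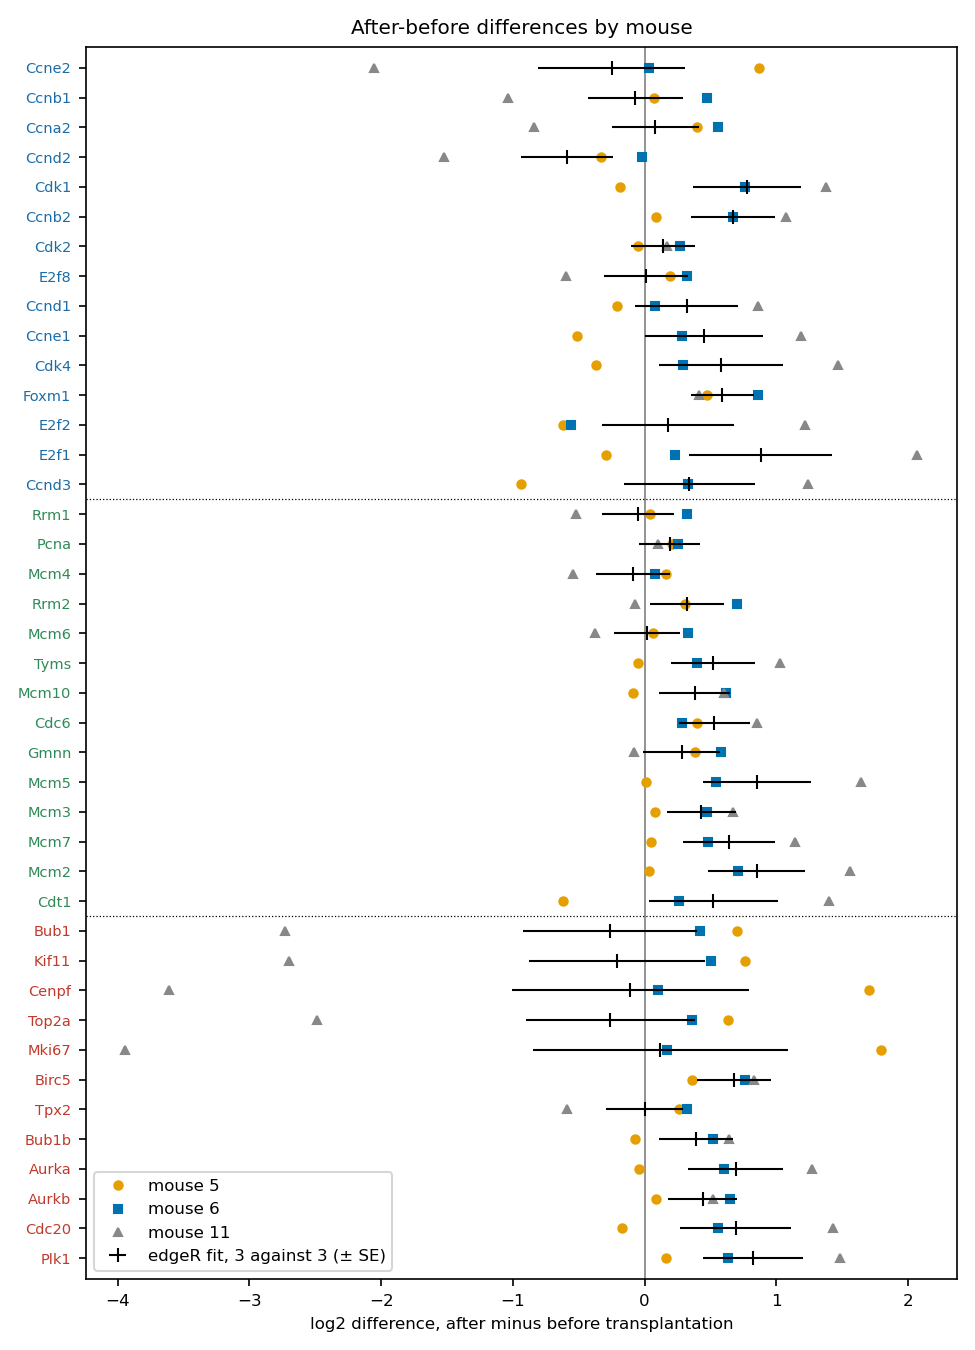
After minus before difference on the log2 CPM scale for each member (rows, ordered by transcript GC within class) in mouse 5 (circles), mouse 6 (squares) and mouse 11 (triangles), with the fitted difference of 3 against 3 libraries and its SE (black). Squares lie above 0 for 39 of 41 members, while triangles reach from -3.94 for Mki67 to 2.07 for E2f1.

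Among the G1 regulators, Ccnd1 encodes cyclin D1, the D-type cyclin induced by mitogens. Ccnd1 measured 1094.3, 1772.8 and 2652.1 CPM after transplantation in mice 5, 6 and 11, and 1266.0, 1679.2 and 1462.8 CPM before it. The groups overlapped, after 11 being the highest library and after 5 the lowest, and the log2 difference was 0.32 ± 0.39 (SE). Cyclin D2 (Ccnd2) went the other way. It was at 500.3, 591.4 and 303.3 CPM after and at 629.8, 600.2 and 868.5 CPM before, each list in the order of mice 5, 6 and 11, which is kept below. Every library after lay below every library before, with a log2 difference of -0.02 in mouse 6 and -1.52 in mouse 11, and the fitted difference was -0.59 ± 0.35. Cyclin D3 (Ccnd3) was at 332.8, 1085.1 and 1036.8 CPM after and 637.1, 865.3 and 438.9 CPM before. After 5 was the lowest library and after 6 the highest, so the 0.34 ± 0.50 difference lies within the spread.

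Cdk4 is the kinase that D-type cyclins activate. It was at 263.6, 657.0 and 851.5 CPM after and at 339.7, 537.9 and 306.3 CPM before, again with after 5 lowest and after 11 highest, and differed by 0.58 ± 0.47. Cyclin E1 (Ccne1), which with Cdk2 opens S phase, was at 50.3, 131.4 and 163.7 CPM after and 71.9, 108.3 and 71.9 CPM before. Its groups overlapped and it differed by 0.45 ± 0.45. Its paralogue Ccne2 had another order, with before 11 the highest library and after 11 the lowest. Ccne2 was at 32.7, 15.9 and 8.06 CPM after and 17.8, 15.6 and 33.8 CPM before, a difference of -0.25 ± 0.56. Cdk2 varied least of this class, at 45.2 to 58.4 CPM after and 46.3 to 48.3 CPM before.

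E2f1, the activator of S phase genes, had the largest fitted difference of any member, 0.88 ± 0.54. It was at 22.8, 48.4 and 98.8 CPM after and 27.8, 41.3 and 23.5 CPM before. Both the highest library (after 11) and the lowest (after 5) were from after transplantation. E2f2, another activator, reached from 11.7 to 42.4 CPM after and from 18.1 to 28.4 CPM before, and the atypical repressor E2f8 from 69.5 to 139.2 CPM after and from 86.7 to 122.0 CPM before. Foxm1, the transcription factor of the G2 and M genes, was steadier. Foxm1 was at 79.8, 94.6 and 71.2 CPM after and at 57.7, 52.2 and 53.6 CPM before. All after libraries lay above all before libraries, the difference was 0.59 ± 0.24, and the edgeR adjusted p was 0.873 (unadjusted 0.0447).

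The cyclins and kinase of S phase and mitosis did not move as a block. Cyclin A2 (Ccna2), which acts in S phase and G2, was at 126.7, 115.7 and 65.2 CPM after and 96.3, 78.5 and 117.0 CPM before. Cyclin B1 (Ccnb1), the mitotic partner of Cdk1, was at 129.1, 156.2 and 63.0 CPM after and 123.2, 112.7 and 129.4 CPM before. In both genes mice 5 and 6 were higher after and after 11 was the lowest of the 6 libraries, and the fitted differences were 0.08 ± 0.33 and -0.07 ± 0.36. Cdk1 itself was at 118.8, 295.4 and 336.8 CPM after and 135.7, 173.9 and 129.2 CPM before. After 11 was here the highest library, and Cdk1 differed by 0.78 ± 0.41. Cyclin B2 (Ccnb2) was higher after in all 3 mice, at 48.5 to 95.1 CPM against 45.2 to 53.7 CPM, and differed by 0.67 ± 0.32.

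Replication genes were higher after for 11 of 14 in mouse 5, 14 of 14 in mouse 6 and 9 of 14 in mouse 11, where the cyclin, CDK and transcription factor class had 6, 13 and 10 of 15. Mcm2 is a subunit of the helicase loaded at origins. It was at 106.6, 205.7 and 261.8 CPM after and at 104.2, 125.8 and 88.6 CPM before, and differed by 0.85 ± 0.37. The groups overlapped only by before 6, which lay above after 5. Mcm5 followed the same order at 69.2, 134.2 and 201.4 CPM after and 68.8, 92.0 and 64.4 CPM before (0.85 ± 0.41). The other helicase subunits differed by 0.64 ± 0.35 (Mcm7), 0.43 ± 0.26 (Mcm3), 0.02 ± 0.25 (Mcm6) and -0.09 ± 0.28 (Mcm4), so members of 1 complex were spread over the whole range of the class. Mcm10, a fork initiation factor, differed by 0.38 ± 0.27.

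Cdc6, which loads the helicase at origins, was at 23.9, 23.6 and 32.4 CPM after and 18.1, 19.4 and 18.0 CPM before. The groups did not overlap and the difference was 0.53 ± 0.27. Its partner Cdt1 reached from 41.9 to 158.4 CPM after and from 59.9 to 96.5 CPM before, and geminin (Gmnn), which inhibits Cdt1, from 14.8 to 17.6 CPM after and from 11.3 to 15.9 CPM before. Pcna, the sliding clamp of the polymerases, was at 131.9, 154.7 and 134.6 CPM after and 113.6, 130.1 and 125.9 CPM before. These groups were also separate, although by the smallest step of the 5 genes, 0.19 ± 0.23.

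Ribonucleotide reductase supplies deoxynucleotides, and its S phase subunit Rrm2 was at 597.9, 786.2 and 589.2 CPM after and 480.9, 483.3 and 620.3 CPM before. It was higher after in mice 5 and 6 and level in mouse 11 (-0.07), with a fitted difference of 0.32 ± 0.28. Rrm1 spanned 215.0 to 301.8 CPM after and 238.0 to 308.1 CPM before (-0.05 ± 0.27). Tyms, which makes thymidylate, was at 39.9 to 83.1 CPM after and 40.5 to 43.6 CPM before (0.52 ± 0.32).

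The mitotic genes split into 2 patterns. All 12 were higher after in mouse 6, 9 of 12 in mouse 5 and 6 of 12 in mouse 11. Mki67, the proliferation marker that coats mitotic chromosomes, was at 193.3, 50.7 and 8.47 CPM after and at 55.9, 44.9 and 131.7 CPM before. After 5 was the highest and after 11 the lowest of the 6 libraries, so the fitted 0.12 ± 0.97 carries no direction. Top2a, the topoisomerase that untangles sister chromatids, followed with 338.5, 164.4 and 57.4 CPM after and 218.5, 128.0 and 322.8 CPM before (-0.26 ± 0.64).

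A similar order held in Cenpf and Bub1, which act at kinetochores, and in Kif11. In after 11 they were at 5.08, 9.12 and 8.94 CPM, the lowest library for each, while after 5 was at 71.1, 60.6 and 60.3 CPM. After 5 was the highest library for Cenpf and Kif11, and before 11 for Bub1 (60.9 CPM). Tpx2, a spindle assembly factor, ran over a narrower range of 85.9 to 134.9 CPM, with after 11 lowest and after 5 highest.

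Plk1, the kinase of mitotic entry, had the other order. It was at 97.6, 193.1 and 225.9 CPM after and 87.4, 124.8 and 81.0 CPM before, higher after in every mouse, and differed by 0.82 ± 0.38. Cdc20, whose promoter carries the same elements as that of Kif11, was at 81.3, 194.5 and 212.9 CPM after and 91.4, 131.6 and 79.1 CPM before (0.69 ± 0.42), against -0.21 ± 0.67 for Kif11. Aurka (0.69 ± 0.36), the spindle pole kinase, and Bub1b (0.39 ± 0.28), a checkpoint protein, were also highest in after 11.

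Birc5 (survivin) and Aurkb belong to the chromosomal passenger complex, and neither had overlapping groups. Birc5 was at 62.9, 99.7 and 95.0 CPM after and at 49.1, 58.7 and 53.4 CPM before. It differed by 0.68 ± 0.28, with an edgeR adjusted p of 0.873 (unadjusted 0.0434). Aurkb was at 39.7, 61.1 and 51.1 CPM after and 37.2, 39.0 and 35.6 CPM before, a difference of 0.44 ± 0.26.

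**Figure D2:**
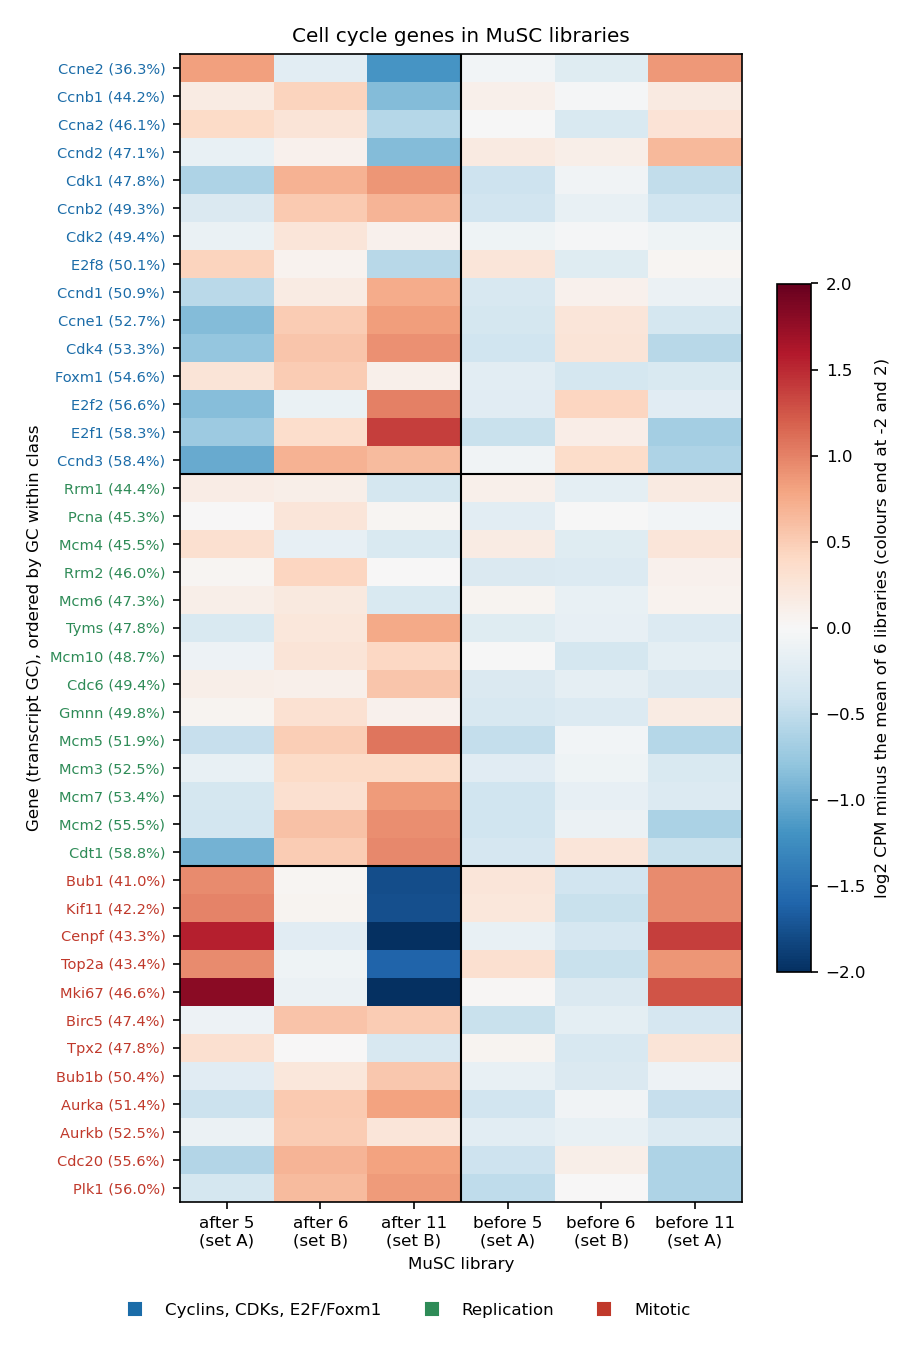
Level of each member (rows, transcript GC in brackets) in each MuSC library (columns), as log2 CPM minus the mean of the 6 libraries, with colours ending at -2 and 2. The low-GC rows of each class and the high-GC rows show opposite colours in after 5 and after 11, and after 6 is above the mean for most rows.

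The spread among libraries ran along the base composition of the transcripts. Transcript GC of the members ran from 36.3% (Ccne2) to 58.8% (Cdt1), and length from 1.13 kb (Gmnn) to 11.13 kb (Cenpf). Across the 41 members, the level relative to the mean of the 6 libraries correlated with GC at -0.75 in after 5, -0.61 in before 5 and -0.79 in before 11, and at 0.61 in after 6, 0.66 in before 6 and 0.75 in after 11. The sign followed the library set in each case. Over all 13357 tested genes with a known transcript the same correlations were -0.48, -0.33, -0.62, 0.42, 0.24 and 0.59, so the members shared the gradient of their libraries. The fitted after minus before difference correlated with GC at 0.70 across the members and at 0.41 across all genes. These are descriptions across genes that share the same 6 libraries.

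**Figure D3:**
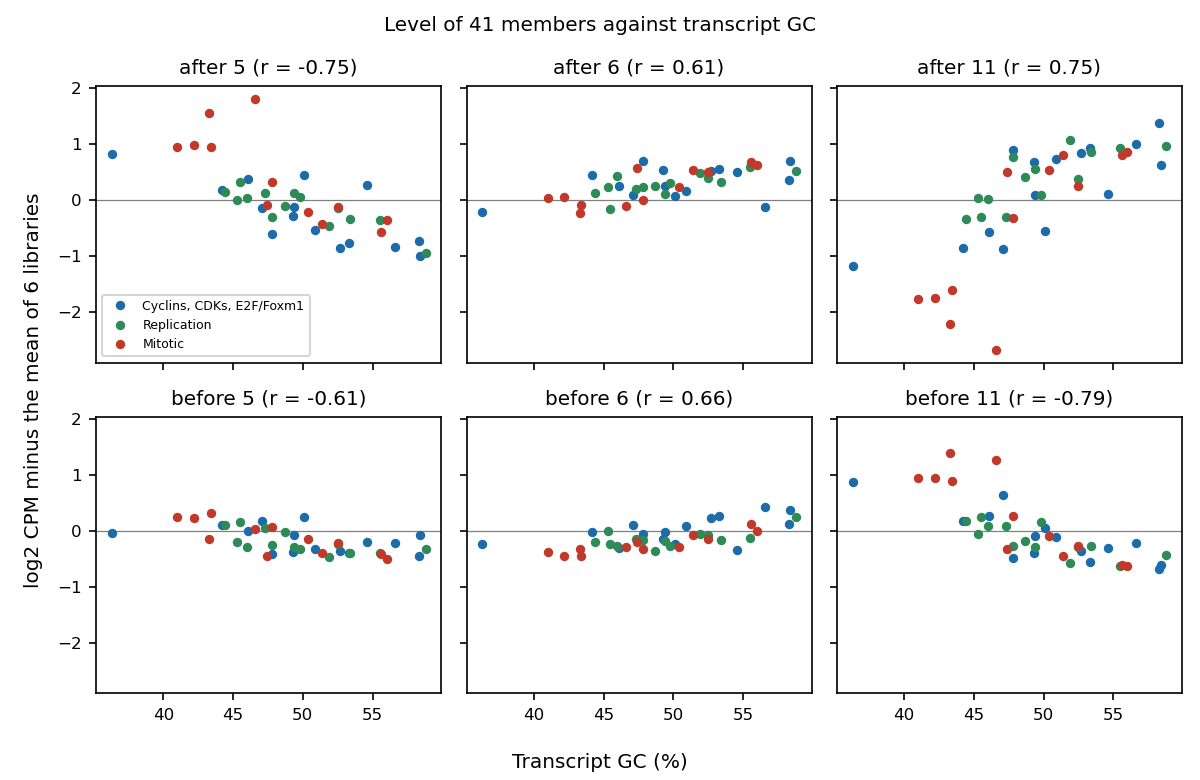
Level of each of the 41 members, as log2 CPM minus the mean of the 6 MuSC libraries, against the GC content of its transcript, in 1 panel per library with the classes coloured. The slope is negative in after 5, before 5 and before 11 (r of -0.75, -0.61 and -0.79) and positive in after 6, before 6 and after 11 (0.61, 0.66 and 0.75).

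The members' direction was therefore measured again with offsets for GC and length in every library. With these offsets 38 of 41 members were above 0 (54.4% of all genes), with a median of 0.28, and all 14 replication and all 12 mitotic genes among them. At an unadjusted p under 0.05 were 6 members, 14.6% of them (4.27% of all genes), namely Ccnb2, Birc5, Foxm1, Plk1, Mcm2 and Cdc6, and none was called. Cdc20 and Kif11, at 0.69 and -0.21 without offsets, were at 0.28 ± 0.19 and 0.12 ± 0.29 with them. Mki67 was at 0.17 ± 0.62 and Cdk1, the highest, at 1.11 ± 0.54, while Ccnd2, Ccnd3 and E2f2 were below 0. With the mouse as a block as well, 35 members were above 0 (52.6%) with a median of 0.26.

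Library choice changed the classes in different ways. With the set as a term, 34 members were above 0 (47.0%), all 12 mitotic genes included. Without after 11, 38 were (53.7%), and without after 5, 27 were (49.1%), with 16 under an unadjusted p of 0.05 where 25.6% of all genes were. Set A alone, with after 5 as its only library after, gave 27 (50.4%). Set B alone, with before 6 as its only library before, gave 33 (51.8%). In mice 5 and 6 alone, whose libraries share a set within each mouse, a fit with the mouse as a block had 33 members above 0 (51.3%), among them all 12 mitotic genes with a median of 0.45, 13 of 14 replication genes (Cdt1 was the exception), and 8 of 15 cyclins, CDKs and transcription factors. That fit rested on a single library per mouse and state, so its calls and SEs carry little weight. It called 206 genes (1.49%) and no member, the lowest edgeR adjusted p of a member being 0.0613, for Mki67 (0.99 ± 0.29). With GC and length offsets added, the lowest was 0.517 among the mitotic genes and 0.368 among all members, with 33 again above 0.

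Marker levels of other cell states also moved among these libraries. The 7 markers of differentiating myocytes summed to 2626.7 CPM in after 5, 1220.3 in after 6 and 481.1 in after 11, and to 1003.4 to 2016.3 CPM before. The 10 markers of mature fibres summed to 796.0 CPM in after 11 and to 2635.7 to 10230.7 CPM in the other 5 libraries. The sum of the fibroadipogenic markers was highest in after 5, at 420.1 CPM against 138.4 to 245.1 CPM elsewhere. Most of that sum came from Smoc2, at 241.2 CPM, while Col3a1 peaked in another library at 201.8 CPM. The part of all these markers in the cell cycle differences was not tested.

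A further 133 genes of the same pathway were read from 8 lists, of which 132 were tested. The genes named for each list are its ends by signed F, the test statistic with the sign of the difference. Other genes of a list can have larger differences. Above 0 were 78 (59.1% against 51.4% of all genes), with a median of 0.15, 6 genes under an unadjusted p of 0.05 and none called. In this fit, without offsets or a block, the replication fork and histone supply list leaned furthest, with 29 of 32 above 0 and a median of 0.49. Its highest gene was Pold1, the catalytic subunit of DNA polymerase delta, at a mean of 54.4 CPM after and 25.8 before (1.08 ± 0.39), and its lowest Pola1 (-0.44 ± 0.72). Origin recognition and helicase activation had 5 of 15 above 0, from Gins2 (0.52 ± 0.32) to Orc3 (-0.44 ± 0.43). That count depended on the fit, being 8 of 15 with GC and length offsets and 14 of 15 in mice 5 and 6 alone with the mouse as a block, where the fork list had 30 and 31 of 32. The difference between the 2 lists was not tested.

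The regulators were mixed. Of the RB, E2F and DREAM genes 6 of 16 were above 0, from Mybl2, which encodes B-Myb (0.68 ± 0.32), to Tfdp2 (-0.71 ± 0.45). Among CDK inhibitors 4 of 6 tested genes were above 0. The highest was Cdkn2c, which encodes the Cdk4 and Cdk6 inhibitor p18, at a mean of 19.1 CPM after and 10.5 before (0.86 ± 0.28). By signed F Cdkn2b was lowest (-0.09 ± 0.32), although the difference of Cdkn1a was -0.12. Other CDK regulators had 8 of 13 above 0. Their ends by signed F were Pkmyt1 (0.70 ± 0.35), an inhibitory kinase of Cdk1, and Cdk6 (-0.55 ± 0.42).

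Among the mitotic lists, kinetochore and checkpoint genes had 8 of 16 above 0. Their ends by signed F were Incenp (0.70 ± 0.33), the scaffold of the passenger complex, and Ttk (-0.42 ± 0.61). Cenpa had a larger difference, 0.99. Spindle and cytokinesis genes had 10 of 19, with Kif18b (0.65 ± 0.25) and Prc1 (-0.28 ± 0.33) at the ends. By size of difference Kifc1 (0.99) and Ckap5 (-0.36) lay outside them. Chromosome structure and exit genes had 8 of 15. The ends were Espl1 (0.86 ± 0.30), which encodes separase, and Esco2 (-0.62 ± 0.81), and Ube2s had a larger difference (0.96). These counts depended on the fit as well, being 13 of 16, 16 of 19 and 13 of 15 with GC and length offsets. In mice 5 and 6 alone with the mouse as a block, every gene of these lists was above 0. Their medians there were 0.34, 0.40 and 0.41, where the fork list had 0.26. Over all lists, 101 of 132 genes were above 0 with the offsets and 115 in mice 5 and 6 alone. None was called in either fit.

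The second comparison set the quadriceps of transplanted mice against that of sham-operated mice. The cell cycle genes showed no common direction there. Of the 41 members 26 had enough counts to be tested, 11 of 15 cyclins, CDKs and transcription factors, 11 of 14 replication genes and 4 of 12 mitotic genes. The difference was below 0 for 15 of the 26 (50.1% of the 14375 genes tested), and its median was -0.08. No member was called by edgeR, and no gene was (0.0%), while DESeq2 called 6 genes (0.0418%) and no member. At an unadjusted p under 0.05 was 1 member of 26, against 7.08% of all genes. No member had groups without overlap, in either direction (0.96% of all genes lower and 1.15% higher in transplanted muscle).

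That 1 member was Ccnd2. In transplanted mice 4, 14, 94, 5, 6 and 11 it had a lowest value of 6.23, a median of 7.97 and a highest of 8.85 CPM, and in shams 3, 192 and 12 it was at 12.7, 8.75 and 13.3 CPM. Sham 192 lay just inside the transplanted range and the other shams above it. Ccnd2 differed by -0.56 ± 0.16 (edgeR adjusted p 0.686, unadjusted 0.00413). Fibroadipogenic markers were lower in several transplanted libraries too, summing to 491.8 to 642.2 CPM against 584.8 to 881.7 CPM in shams, and their part in the Ccnd2 difference was not tested.

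The other D-type cyclins overlapped. The values below are the lowest, median and highest of the 6 transplanted libraries, then shams 3, 192 and 12 in that order. Ccnd1 was at 3.31, 7.37 and 11.8 CPM in transplanted muscle and at 10.6, 6.89 and 8.98 CPM in shams (-0.31 ± 0.27). Ccnd3 was at 3.86, 7.89 and 10.2 CPM and at 8.20, 4.14 and 11.3 CPM (-0.16 ± 0.22). In both genes transplanted 4 was the lowest of the 9 libraries. Cdk4 was nearly level at 17.3, 18.9 and 23.0 CPM and at 20.0, 18.8 and 18.9 CPM (-0.01 ± 0.10). Pcna was at 15.3, 18.5 and 23.3 CPM and at 20.9, 16.2 and 21.2 CPM (-0.12 ± 0.11), and Mcm2 at 5.63, 6.62 and 8.08 CPM and at 6.75, 7.85 and 6.24 CPM (0.00 ± 0.15). Rrm1, with 40.7 to 49.2 CPM in transplanted muscle and 40.0 to 45.4 CPM in shams (0.09 ± 0.09), had a similarly small difference and error.

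Ranked by signed F and not by the size of the difference, the lowest members after Ccnd2 were Ccna2 (-0.78 ± 0.50) and Rrm2 (-0.57 ± 0.35). The highest by that rank were Kif11 (0.53 ± 0.44), Rrm1 and Gmnn (0.26 ± 0.26). Ccna2 was at 0.186, 0.250 and 0.645 CPM in transplanted muscle and at 0.589, 0.530 and 0.672 CPM in shams. Rrm2 was at 0.223, 0.591 and 0.917 CPM and at 0.482, 0.636 and 1.10 CPM. In both genes sham 12 was the highest library, and the groups overlapped.

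The next 5 genes were under 1 CPM in every muscle library. E2f1 was at 0.233, 0.449 and 0.806 CPM in transplanted muscle and at 0.0536, 0.212 and 0.720 CPM in shams (0.55 ± 0.63). Ccne1 was at 0.179, 0.326 and 0.753 CPM and at 0, 0.477 and 0.528 CPM (0.05 ± 0.74). Both were lowest in sham 3 and highest in transplanted 94. Foxm1 was at 0.233, 0.370 and 0.645 CPM and at 0.589, 0.106 and 0.528 CPM (-0.09 ± 0.54). Mcm5 was at 0.368, 0.628 and 0.885 CPM and at 0.911, 0.742 and 0.672 CPM (-0.30 ± 0.39). The shams of Mki67, at 0.643, 0.371 and 0.480 CPM, lay inside its transplanted range of 0.0483, 0.396 and 0.937 CPM (-0.10 ± 0.59).

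A further 7 listed genes had too few counts to be tested, each summing to 6 to 44 counts over the transplanted libraries and 2 to 29 over the shams. Ccnb1 was at 0, 0.0502 and 0.0966 CPM in transplanted muscle and at 0.107, 0 and 0 CPM in shams. Cdk1 was at 0, 0.113 and 0.386 CPM and at 0.0536, 0 and 0.0480 CPM. Cdc6 was at 0, 0.192 and 0.357 CPM and at 0.107, 0.159 and 0.336 CPM. Each of these was listed at 0 in at least 1 library. Top2a, highest of the 7, was at 0.268, 0.285 and 0.645 CPM and at 0.429, 0.318 and 0.720 CPM. Plk1 was at 0.0465, 0.0779 and 0.223 CPM and at 0.321, 0.106 and 0.432 CPM. The passenger complex genes were low as well. Birc5 was at 0.0538, 0.141 and 0.233 CPM and at 0.107, 0.106 and 0.0960 CPM, and Aurkb at 0, 0.0510 and 0.233 CPM and at 0.0536, 0 and 0.144 CPM.

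**Figure D4:**
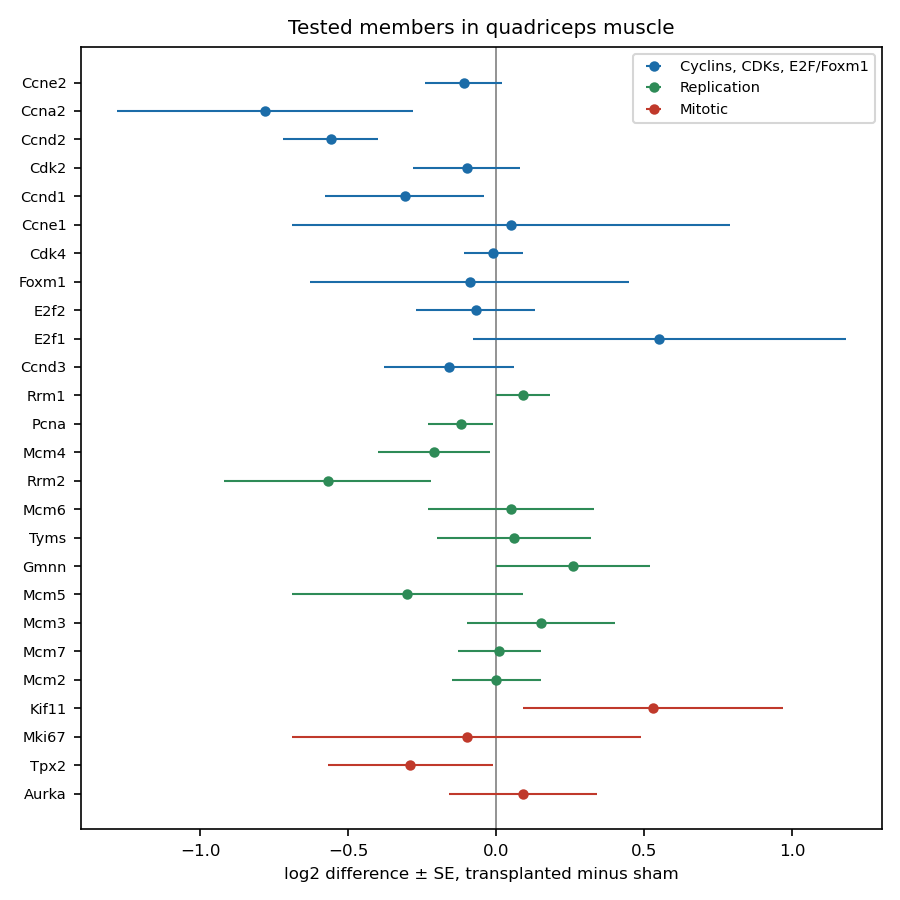
Fitted log2 difference, transplanted minus sham quadriceps, with its SE for the 26 members that were tested, coloured by class. Ccnd2 at -0.56 is the value farthest from 0 relative to its SE, and 15 of the 26 values lie below 0.

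The muscle libraries were deposited in a pair of tables, with shams 3 and 192 beside transplanted 4, 14 and 94 in one and sham 12 beside transplanted 5, 6 and 11 in the other. The transplanted minus sham difference was tested for a change between the tables. No gene was called, with 1342 genes at an unadjusted p under 0.05, and the member with the lowest adjusted p was Tpx2 at 0.375 (edgeR), for which the tables differed by 1.46 ± 0.39. Tpx2 was at 7.30 CPM in sham 12, the only sham of its table, and at 2.57 and 3.77 CPM in shams 3 and 192. The sham level of that table thus rested on 1 library. Within the tables, 15 of 24 tested members were below 0 in the first (median -0.11) and 15 of 28 in the other (-0.02). Of 97 tested pathway genes 45 were above 0, 4 had an unadjusted p under 0.05 and none was called. Those named by rule included Pole2 (-1.08 ± 0.45), a polymerase epsilon subunit, Cks1b (-0.77 ± 0.28), a CDK accessory protein, and Cdkn2c (-0.53 ± 0.18). By signed F, Cdkn2c was thus highest of its list in MuSCs after transplantation and lowest of its list in muscle.

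The names at the ends of the remaining muscle lists were Gins3 (0.45 ± 0.36) and Orc4 (-0.21 ± 0.12), Rfc2 (0.20 ± 0.12), E2f4 (0.19 ± 0.09) and E2f5 (-0.34 ± 0.40), Cdkn1a (0.34 ± 0.21), and Cdc25a (0.23 ± 0.14). In the mitotic lists they were Cenpn (0.67 ± 0.42) and Cenpa (-0.50 ± 0.24), Kif20a (0.26 ± 0.41) and Anln (-0.43 ± 0.32), and Ube2s (0.19 ± 0.08) and Smc4 (-0.37 ± 0.21).

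Levels per transcript length lay far apart between the tissues. In deposited TPM, the median over the members was 46.8 in MuSCs and 0.28 in quadriceps. All 41 members had a median above 1 TPM in MuSCs and 16 did in quadriceps, 7 of 15 cyclins, CDKs and transcription factors, 7 of 14 replication genes and 2 of 12 mitotic genes. For 40 of 41 the lowest of 6 MuSC libraries exceeded the highest of 9 muscle libraries. The share of all genes separated in this way was not counted, so the count is not shown to be particular to the members. The exception was Ccne2, at 2.66 to 23.8 TPM in MuSCs and 2.44 to 5.24 TPM in muscle. Tissue and deposited table cannot be told apart here, so this was not tested.

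In MuSCs the order of median TPM began with Ccnd3 (530.3), Ccnd1 (485.0), Rrm2 (356.0), Cdk4 (318.2) and Cdk1 (280.2), and Ccnd3 (288.3 to 611.8) and Ccnd1 (443.4 to 680.7) overlapped. It ended with Cdc6 (6.77), Mki67 (6.42) and Cenpf (2.85). In muscle the order began with Cdk4 (17.6), Pcna (17.4) and Rrm1 (17.3), whose ranges of 14.4 to 21.4, 14.3 to 22.5 and 13.8 to 21.8 TPM overlapped almost fully. Gmnn (6.99), Mcm7 (5.66) and Ccnd3 (5.41) followed. The mitotic genes Bub1, Bub1b and Cenpf were at a median of 0.00, 0.01 and 0.02 TPM in muscle, while Aurka was at 4.27 and Tpx2 at 1.20 TPM, so the mitotic class was not uniformly low there. Quadriceps libraries had Pax7 at 0.326 to 1.29 CPM and summed fibre markers of 150214.0 to 199785.5 CPM. Other genes of the MuSC and myoblast list were not low there, with Des at 1849.9 to 2796.9 CPM. That list of 10 summed to 1952.4 to 2905.6 CPM in quadriceps and to 2527.6 to 5376.4 CPM in MuSCs, so the sums overlapped.

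**Figure D5:**
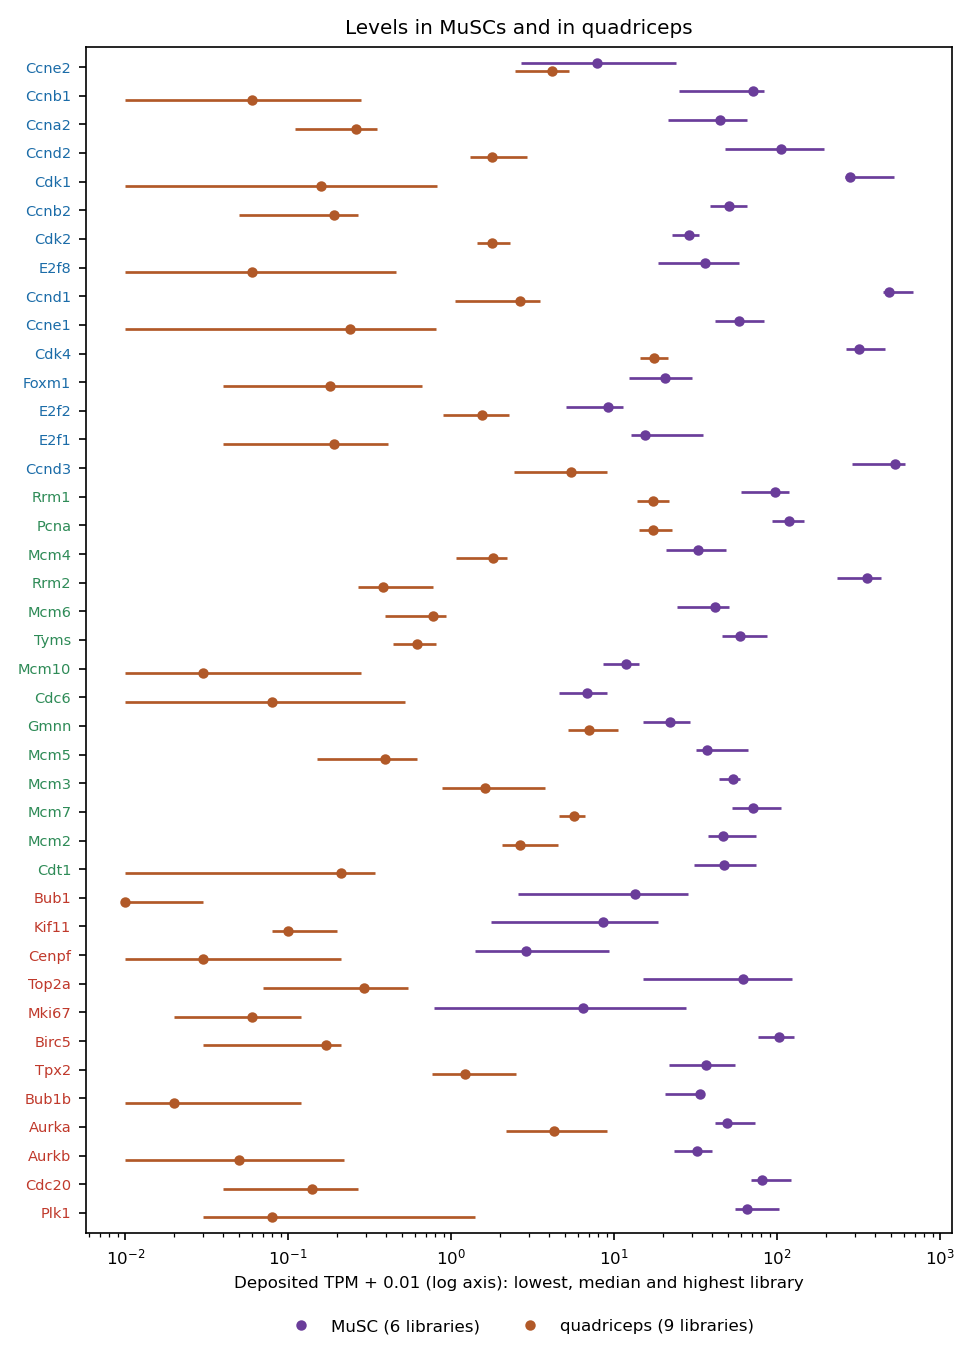
Deposited TPM plus 0.01 on a log axis for each member, as the lowest, median and highest of 6 MuSC libraries (purple) and 9 quadriceps libraries (brown). The ranges are separate for 40 of 41 members and overlap for Ccne2, and Cdk4, Pcna and Rrm1 lead in muscle. The share of all genes with separate ranges was not counted.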

How the data were processed

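Per the labels' protocols, RNA was isolated with Trizol and prepared for sequencing with NEBNext Ultra. The authors deposited estimated counts, TPM and FPKM per gene in 3 tables (1 for MuSCs, 2 for muscle), per the file headers. Which aligner, quantifier and annotation made them is not given in the sources used. The deposited estimated counts were rounded to whole numbers before testing. Deposited TPM was used for levels between genes and tissues, and deposited FPKM only to check the library sets. The mean transcript length that FPKM implied was 1.24 to 1.26 kb in set A and 1.0 to 1.02 kb in set B. GRCm38 and mm10 are named in the submitters' processing notes, yet only 1409 of 52029 genes shared with GENCODE M21 had the same coordinates, so no gene coordinates from the tables are printed. Columns of no labelled sample (3) were not used.

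Groups came from the titles, since the treatment entry of the shams also names transplantation. Because the titles carry mouse numbers, each library in a group was treated as another animal. The labels also give a number of 10 animals with every library, and whether a library held RNA of a single animal was not tested. The main test was edgeR 4.0.16 (R 4.3.3), quasi-likelihood, 2-sided, after filterByExpr at a minimum count of 10 and scaling by TMM, with p adjusted over all genes tested by Benjamini-Hochberg (threshold 0.05). MuSCs were fitted without covariates and muscle with the deposited table as a term. DESeq2 1.42.0 was an alternative. The SE is the log2 difference over the root of F. Differences per mouse and centred levels used log2 CPM with a prior count of 2. GC and length are those of the longest coding transcript in GENCODE M21, matched for 98.9% of the genes tested in MuSCs. The scripts were tested on simulated data.

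The numbers pair the MuSC libraries by the labels, as the cells were autologous. Deviations from the group means correlated at 0.297 (mouse 5), 0.357 (mouse 6) and -0.396 (mouse 11). Between mice they reached 0.55 (after 11 with before 6) and 0.487 (after 5 with before 11), each pair of 1 set. The lowest was -0.677 (after 5 with before 6, of different sets). No libraries of a group were duplicates (chi-square per degree of freedom 16.72 to 461.8).

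All 41 members are accounted for. A list of 20 genes was given per library whatever their values (in the 6 transplanted muscles as lowest, median and highest), with the 3 highest and 3 lowest members by signed F in each comparison, and the ends of each pathway list. Members and lists were chosen with earlier results of these data known.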

Additional observations from a re-analysis of the deposited data

Results flagged for a closer look

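In transplanted muscle 2 of 26 tested members had a single library far above the other 5, by the gap to the nearest library over the whole range (critical value 0.625 for 6 libraries, which chance passes in about 1 of 20 groups). For Ccne1 the gap in transplanted 94 was 0.638 of the range, at 0.753 CPM against 0.179 to 0.386 CPM in the others. For Mcm7 the gap in transplanted 6 was 0.649 of the range, at 8.29 CPM against 6.83 to 7.34 CPM.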

How the results depend on the processing

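The median log2 difference of the members stayed above 0 in MuSCs under every alternative run, at 0.10 (log2(TPM + 1), where 24 of 41 were above 0 and the median of all genes was -0.14) to 0.55 (without after 5), and in muscle at -0.12 (without transplanted 94) to 0 (without transplanted 4). The number of genes called changed with the tool, the filter, the offsets and the libraries. In MuSCs edgeR called 0, and DESeq2 16, the fit without after 5 and after 11 4, set A alone 43, mice 5 and 6 alone with the replicate block 206, and the same with GC and length offsets 21. In muscle edgeR called 0, and DESeq2 6, no filter on low counts 12, the 2-sham table alone 1 and the 1-sham table alone 41. Leaving out 1 muscle library at a time gave 0 to 4, with 2 without transplanted 94 and 4 without sham 192. No member was called under any of these settings. The fit without after 5 and after 11, set A alone, set B alone and the 1-sham table alone leave 1 group with a single library. That library is assumed to vary like the other group, so counts from those fits carry little weight. The fits of mice 5 and 6 alone have a single library per mouse and state, so their counts carry little weight too. The cause of these changes was not tested. With the replicate block on the mouse and all 6 MuSC libraries, 0 genes were called and 29 of 41 members were above 0 (median 0.31), so pairing changed no call. No paired analysis was possible in muscle because transplanted and sham mice share no numbers. On the log2(TPM + 1) scale, the range over muscle libraries of the mean centred level was 0.36 in place of 0.70 for the cyclin class and 0.51 in place of 0.95 for the mitotic class.

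Differences of single genes below changed sign, none having passed the threshold. In mice 5 and 6 alone with the replicate block, then with offsets too, MuSC differences were -0.07 and -0.06 (Ccnd1), -0.30 and -0.28 (Ccnd3), -0.12 and -0.09 (Ccne1), 0.46 and 0.27 (Ccne2), 0.27 and 0.21 (Ccnb1), -0.04 and -0.01 (Cdk4), -0.03 and -0.01 (E2f1), and 0.50 and 0.40 (Top2a). In set A alone they were -0.31 (Ccnd1), -0.68 (Ccnd3), -0.50 (Ccne1), 0.35 (Ccne2), 0.04 (Ccnb1), -0.15 (Cdk1), -0.28 (Cdk4), -0.16 (E2f1) and 0.34 (Top2a), and in set B alone -0.61 (Mki67). With GC and length offsets, then with the replicate block too, they were -0.12 and -0.17 (Ccnd3), 0.31 and 0.31 (Ccne2), 0.18 and 0.13 (Ccnb1), and 0.05 and 0.03 (Top2a), and Mki67 was -0.06 with both. The replicate block alone gave -0.41 for Mki67. With the set as a term Ccnd3 was -0.20, Ccne1 -0.03 and Top2a 0.06. Without after 5 and after 11, Ccnb1 was 0.37 and Mki67 -0.60. With 1 MuSC library left out at a time, the lowest and highest values were -0.03 and 0.57 for Ccnd1, -0.93 and 0.17 for Ccne2 (0.11 without after 11), -0.12 and 0.32 for Ccna2, -0.34 and 0.23 for Ccnb1, -1.03 and 0.17 for Top2a, and -1.41 (without after 5) and 0.73 for Mki67.

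In muscle, the 1-sham table alone gave 0.13 (Ccnd1), -0.74 (Ccne1), 0.21 (Cdk4), -0.75 (E2f1), 0.01 (Mcm5) and 0.01 (Pcna). The 2-sham table alone gave 0.32 (Foxm1) and 0.33 (Mki67), and no table term 0.03 (Cdk4). With 1 muscle library left out at a time, the lowest and highest were -0.37 (without sham 192) and 0.08 (without sham 3) for Ccnd3, -0.51 (without sham 3) and 0.71 for Ccne1, -0.15 and 0.05 for Cdk4, -0.55 and 0.33 (without sham 12) for Foxm1, and -0.40 and 0.33 for Mki67. Of the 12 mitotic genes 8 had too few counts to be tested in muscle, at 18.07 to 22.98 M counts a library, where all 12 were tested in MuSCs at 17.09 to 21.26 M.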
